A study of Homo sapiens with 9 samples.

Results

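Nuclear genes of oxidative phosphorylation were followed in Cal-27 cells, an established line of human tongue squamous carcinoma cells, exposed to fibroblast exosomes. The genes were taken by symbol, as the NDUF subunits and NDUFAF assembly factors of complex I, SDHA to SDHD of complex II, UQCR genes and CYC1 of complex III, CYCS (cytochrome c), COX4 to COX8 genes of complex IV and ATP5 genes of complex V. This gave 94 of the 16366 genes of the table, namely 39 complex I subunits, 8 NDUFAF factors, 4 genes of complex II, 10 of complex III, CYCS, 12 of complex IV and 20 of complex V. The rule used gene symbols alone, though it was set with earlier results of these data known.

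The first group was Cal-27 given exosomes from cancer-associated fibroblasts (CAF exosomes) in a co-culture of 48 h, the second was Cal-27 given hOMF exosomes for the same 48 h, an abbreviation the labels leave unexplained, and the third was the control group, for which the labels give no added agent. All groups were the same line in serum-supplemented high-glucose medium, with 3 replicate RNA-seq libraries each. The labels do not say whether replicates were separate cultures, so p-values measure the spread between these libraries, which may be technical.

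The respiratory chain of the inner mitochondrial membrane passes electrons from NADH (complex I) and succinate (complex II) through complex III, cytochrome c and complex IV to oxygen, and the proton gradient so built drives ATP synthase, complex V. Most subunits are encoded in the nucleus and a few in mitochondrial DNA. Many of the nuclear genes are known targets of the transcription factors NRF1 and GABP, and tumour cells vary widely in how far they rely on this pathway beside glycolysis.

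The libraries held 11185672 to 12779101 expected counts, of which the 94 genes took 0.794% to 0.917%. After the filter on low counts, 91 of the 94 genes were among 12470 tested. UQCRHL, a near copy of UQCRH, had 6, 7 and 1 counts in CAF exosome libraries, 4, 7 and 2 in hOMF exosome libraries and 1, 0 and 2 in control libraries. ATP5MGL had at most 1 count in any library, and the read-through gene ATP5MF-PTCD1 had 0 counts except in CAF exosome replicate 3 and control replicate 3. These 3 were not tested. COX4I2, COX6A2, COX7A1 and COX7B2, the tissue-restricted forms of complex IV subunits, had no entry among the 16366 genes. The mitochondrially encoded subunits were not found there under the 13 symbols looked for. None of these genes could be analysed here.

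Oxidative phosphorylation genes were abundant in Cal-27. On the TPM scale, which is per length, the median over the 94 genes in control cells was 134 TPM, against 13.7 TPM over all tested genes, and 57 of the 94 reached 100 TPM, against 1337 of 12470 tested genes. Complex IV stood highest with a median of 463 TPM, followed by complex V with 229 TPM, complex I subunits with 141 TPM, complex III with 118 TPM and complex II with 117 TPM. The complex I assembly factors, which help build the complex and leave it, had a median of 8.40 TPM.

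The most abundant members were complex IV subunits. COX8A, a small one, had 2729, 2809 and 2768 TPM in CAF exosome libraries, 3035, 2968 and 2863 TPM in hOMF exosome libraries and 2576, 2611 and 2710 TPM in control libraries. COX6A1, the widely expressed form of subunit VIa, had 2467, 2609 and 2817 TPM with CAF exosomes, 2601, 2542 and 2645 TPM with hOMF exosomes and 2208, 2343 and 2263 TPM in control. Every library exposed to exosomes was above every control library for both genes on this scale, which carries no TMM factor (the between-library scaling used in the tests). In TMM-scaled counts both overlapped control, with log2 fold changes of 0.02 with CAF and 0.08 with hOMF exosomes for COX8A and 0.16 with CAF and 0.10 with hOMF exosomes for COX6A1, all with adjusted p of 0.15 or more by edgeR. The implied effective length was under 250 nucleotides for 11 of the 94 genes, among them COX8A, so that their levels per length rest on short targets.

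The other leading genes were NDUFB7 and NDUFA13 in complex I at 857 and 666 TPM in control, SDHB and SDHA (the iron-sulfur and flavin subunits of complex II) at 167 and 128 TPM, UQCRH (the hinge protein of complex III) and CYC1 (cytochrome c1) at 536 and 198 TPM, and ATP5MC2 and ATP5MF in complex V at 721 and 688 TPM. The tissue isoforms sat far lower. COX6B2, known as the testis form of subunit VIb, had 0.913 ± 0.545 TPM in control cells (SD, n = 3), and its common counterpart COX6B1 had 1500 ± 7.22 TPM. NDUFA4L2, a paralogue of NDUFA4 known as a hypoxia-induced gene, was at 14.7 TPM in control, against 141 TPM for NDUFA4.

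**Figure D1:**
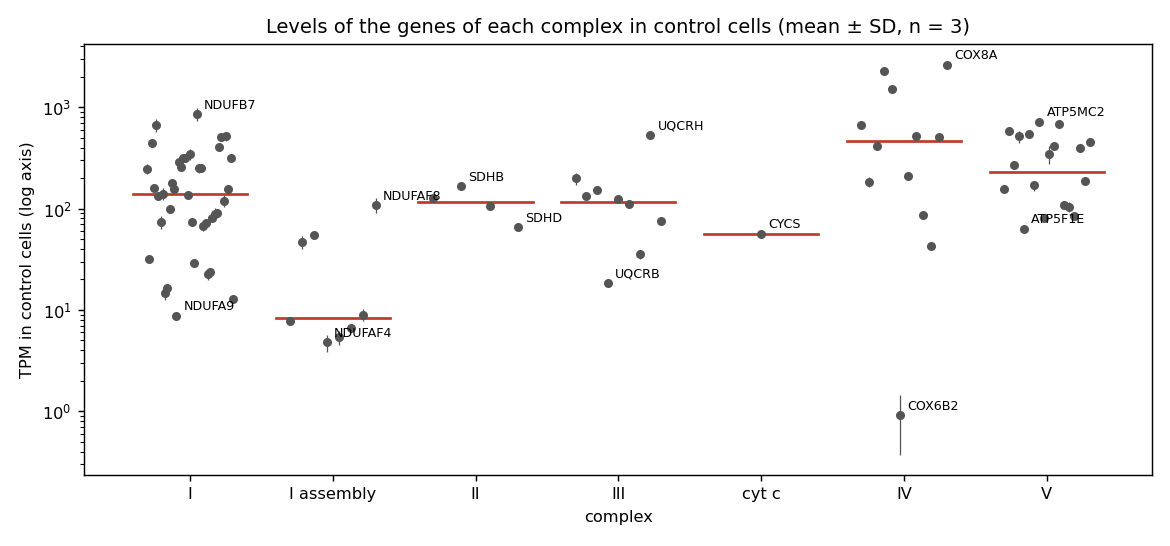
Level of each tested oxidative phosphorylation gene in control cells, in TPM on a log axis (points are means, bars SD, n = 3 libraries), by complex. Red lines are medians over all listed genes of a complex, from 8.40 TPM for complex I assembly factors to 463 TPM for complex IV.

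Cells given CAF exosomes differed little from control cells in these genes. Of 91 tested genes, 5 were called at an adjusted p under 0.05 by edgeR, 3 higher (UQCRC2, NDUFB9 and NDUFA4) and 2 lower (NDUFB2 and CYCS). That is 5.49% of the members, where 18.2% of all tested genes were called, 9.51% higher and 8.64% lower. The median log2 fold change of the 91 genes was -0.01, with the middle 50% from -0.08 to 0.06, beside -0.01 for all genes, whose middle 50% ran from -0.16 to 0.17. The called genes lay between 0.81-fold and 1.22-fold of control. Bulk RNA cannot tell fewer cells of a type from less RNA per cell.

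Cells given hOMF exosomes gave a like number of calls. Of the 91 genes, 5 were called by edgeR, 1 higher (UQCRC2) and 4 lower (NDUFB2, ATP5MF, CYCS and UQCRC1), again 5.49% of the members, where 23.2% of all tested genes were called, 11.8% higher and 11.4% lower. The median log2 fold change of members was -0.002, beside 0.003 for all genes. Both comparisons use the same 3 control libraries, so their values are given side by side and their likeness is no result.

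Between the exosome sources, 0 of the 91 genes were called by edgeR, DESeq2 or limma-voom, where edgeR called 0.016% of all tested genes, with 1 gene higher (0.00802%) and 1 lower (0.00802%). At an unadjusted p under 0.05 there were 3 members, NDUFA5, NDUFB5 and SDHD, named here after their values were seen. Each comparison with control had 12 members at an unadjusted p under 0.05. The whole-table shares of unadjusted p under 0.05 were 32.8% for CAF exosomes against control, 36.7% for hOMF exosomes against control and 7.59% for CAF against hOMF exosomes.

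The data set limits on changes that could have been missed. The 95% interval of the fold change lay within 1.5-fold in either direction for 88 of 91 genes with CAF exosomes against control, for 87 with hOMF exosomes against control and for 87 with CAF against hOMF exosomes. Within 1.2-fold the numbers were 43, 40 and 52 of 91. COX6B2, with 4 to 19 counts per library, had the widest intervals, from 0.88-fold to 2.87-fold for CAF exosomes and from 0.81-fold to 2.68-fold for hOMF exosomes.

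**Figure D2:**
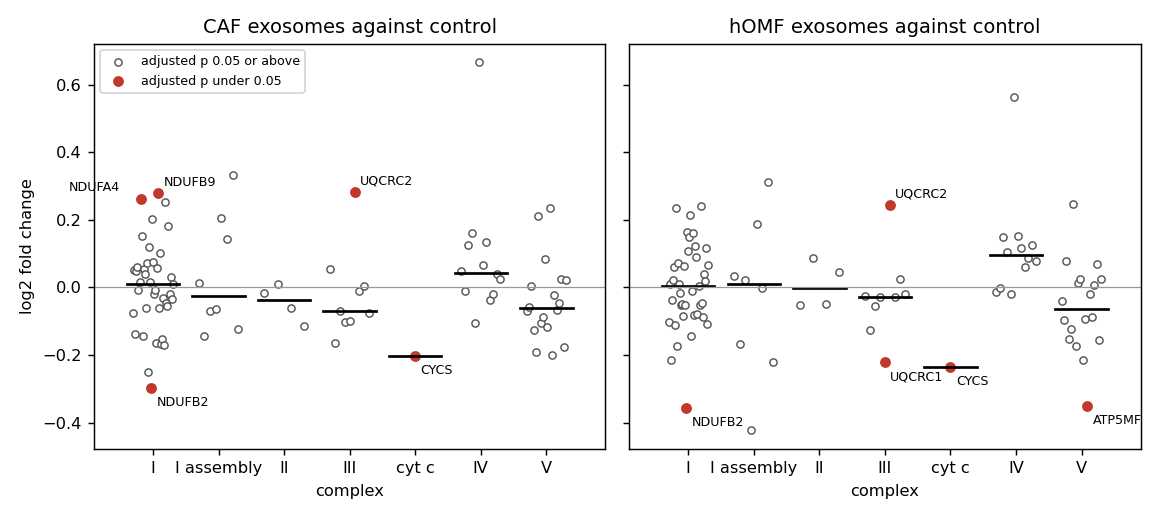
Log2 fold change (edgeR) of each of the 91 tested genes by complex, for CAF exosomes against control (left) and hOMF exosomes against control (right). Red points passed an adjusted p of 0.05 and black lines are medians of a complex, which lie between -0.07 and 0.10 apart from the single gene CYCS.

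The stretches before the transcription start of 4 of the called genes, not all of them, are shown because their values moved in both directions from control while the genes serve one chain. Each is the 250 bases upstream of the RefSeq start (GRCh38.p14), 5′ to 3′ on the strand of the gene, with capitals for a match to a motif searched. CYCS is at chr7:25125261-25125510, minus strand, UQCRC2 at chr16:21953111-21953360, plus strand, NDUFB2 at chr7:140696458-140696707, plus strand, and UQCRC1 at chr3:48609647-48609896, minus strand.
CYCS: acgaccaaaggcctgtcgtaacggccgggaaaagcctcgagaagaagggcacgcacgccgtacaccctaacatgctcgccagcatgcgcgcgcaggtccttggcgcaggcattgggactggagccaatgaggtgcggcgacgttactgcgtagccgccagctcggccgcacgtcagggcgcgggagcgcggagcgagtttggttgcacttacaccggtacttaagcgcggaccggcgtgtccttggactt
UQCRC2: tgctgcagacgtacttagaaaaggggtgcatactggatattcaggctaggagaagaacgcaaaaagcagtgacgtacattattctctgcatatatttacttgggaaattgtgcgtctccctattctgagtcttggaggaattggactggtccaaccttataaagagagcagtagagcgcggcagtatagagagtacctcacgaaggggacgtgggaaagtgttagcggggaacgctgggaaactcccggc
NDUFB2: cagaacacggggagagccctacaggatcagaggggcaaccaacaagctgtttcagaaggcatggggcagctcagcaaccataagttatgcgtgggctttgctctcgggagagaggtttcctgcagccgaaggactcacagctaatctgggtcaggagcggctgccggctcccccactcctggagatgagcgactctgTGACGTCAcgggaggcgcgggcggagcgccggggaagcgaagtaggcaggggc
UQCRC1: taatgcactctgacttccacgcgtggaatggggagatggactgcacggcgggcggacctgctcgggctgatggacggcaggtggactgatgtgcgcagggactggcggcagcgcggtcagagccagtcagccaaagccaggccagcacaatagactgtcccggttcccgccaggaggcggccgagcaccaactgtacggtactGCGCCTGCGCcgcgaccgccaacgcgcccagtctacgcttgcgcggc

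The capitals mark a CREB-type match (TGACGTCA) in NDUFB2 and an NRF1-type match (GCGCA, any base, then GCGC, found as GCGCCTGCGC on the printed strand) in UQCRC1. The CYCS and UQCRC2 stretches hold none of the 5 motifs, which says only that these letters are not in the window. Windows of 300 bases, 250 before and 50 after the start, were in hand for 77 of the 94 genes and for 27305 genes in all. Of the called genes not printed, NDUFA4 had a window with none of the 5 motifs, and NDUFB9 and ATP5MF had no window in hand. On both strands the NRF1 letters were in 17 of 77 windows (22.1%), against 6.3% of all windows and 11.8% of those of tested genes. The GABPA letters CCGGAAG were in 27.3% (all windows 10.7%, tested genes 19.5%), the YY1 letters ATGGCGGC in 15.6% (3.2% and 6.3%) and the CREB letters TGACGTCA in 6.5% (2.0% and 3.2%). The SP1 letters GGGCGGG were in 26.0%, against 32.9% and 54.4%. The NRF1 letters were in 4 of 7 windows of complex III, 4 of 14 of complex V, 6 of 34 of complex I subunits and 0 of 11 of complex IV, and the YY1 letters in 9 of 34 of complex I subunits. A match is a description of the letters and no measure of binding.

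Complex I, the NADH dehydrogenase, had 39 tested subunits, with 2 higher and 1 lower in CAF exosome cells and 0 higher and 1 lower in hOMF exosome cells. That is 7.69% of them with CAF and 2.56% with hOMF exosomes, beside 18.2% and 23.2% of all tested genes. The 2 higher ones include NDUFA4, placed here by its symbol. The medians were 0.01 and 0.00 on the log2 scale, with 20 positive and 19 negative values in each comparison. NDUFB2, an accessory subunit of the membrane arm, had 31.5, 37.9 and 34.5 CPM (TMM-scaled counts relative to library size) with CAF exosomes, 34.5, 32.7 and 32.7 CPM with hOMF exosomes and 39.5, 43.3 and 45.0 CPM in control. Every library exposed to exosomes was below every control library. For called genes, here and below, such separation adds no support to the call, which came from the same libraries. Its share over all tested genes was not counted. The CREB letters of the NDUFB2 window were also in the windows of NDUFA10, SDHB, ATP5MC1 and ATP5ME. None of these 4 was called in the edgeR fit of all 9 libraries, and ATP5ME was called with CAF exosomes when CAF replicate 1 was left out. A part of these letters in the values was not tested. The log2 fold change of NDUFB2 was -0.30 (SE 0.09, adjusted p = 0.025) for CAF exosomes and -0.36 (SE 0.09, adjusted p = 0.00783) for hOMF exosomes. With hOMF exosomes it was called in all 20 alternative settings, with adjusted p of 0.00347 to 0.0388. With CAF exosomes it was not called without CAF replicate 1, CAF replicate 3, control replicate 2 or control replicate 3, where adjusted p reached 0.099. NDUFB2 lies at chr7:140690777-140722790 on the plus strand (GRCh38, GENCODE annotation) and its exons overlap other genes on both strands. The libraries mark strand, but whether strand was used in counting is unstated, so reads of such neighbours cannot be separated here.

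NDUFB9, another membrane-arm subunit, had 83.1, 95.2 and 92.1 CPM with CAF exosomes, 83.5, 83.1 and 82.6 CPM with hOMF exosomes and 67.7, 76.1 and 79.1 CPM in control. All exosome libraries were above all control libraries. It rose 1.21-fold with CAF exosomes (log2 0.28, SE 0.08, adjusted p = 0.021), and its value for hOMF exosomes was 0.16 (SE 0.08, adjusted p = 0.144). The difference between the sources was 0.12 (adjusted p = 0.782), so the calls do not show that CAF and hOMF exosomes differ here. The CAF call was lost without CAF replicate 2, CAF replicate 3, control replicate 1 or control replicate 2. NDUFB9 exons overlap genes on the opposite strand.

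NDUFA4 was first purified with complex I, is now known as a subunit of complex IV (RefSeq symbol COXFA4) and was counted under complex I by its symbol. It had 193, 218 and 211 CPM with CAF exosomes, 204, 212 and 196 CPM with hOMF exosomes and 159, 163 and 198 CPM in control. Control replicate 3 lay within the range of the exosome libraries and the other 2 control libraries below it. The log2 fold change was 0.26 (SE 0.09, adjusted p = 0.0419) with CAF exosomes and 0.24 (SE 0.09, adjusted p = 0.0559) with hOMF exosomes. Without control replicate 3 the hOMF value was 0.34 (adjusted p = 0.00831), 1 of 8 alternatives of 20 that called it, and the CAF call was lost in 6 of 20 settings, namely without CAF replicate 2 or 3, hOMF replicate 2 or control replicate 1 or 2, and in the fit of the 2 groups alone. Over the 20 alternatives adjusted p ran from 0.00772 to 0.158 for CAF exosomes.

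NDUFS4, an accessory subunit of the matrix arm, is named here after its values were seen. It had 26.0, 30.7 and 28.0 CPM with CAF exosomes, 28.5, 26.8 and 28.9 CPM with hOMF exosomes and 23.5, 24.0 and 23.7 CPM in control. The control libraries were close together and below all others, and adjusted p was 0.0541 for CAF and 0.0541 for hOMF exosomes, just outside the threshold. It was called in 7 of 20 alternatives with CAF and 6 with hOMF exosomes, among them both fits of log2 FPKM and the fit without TMM factors in each comparison. The paralogue NDUFA4L2 had 8.20, 11.2 and 11.8 CPM with CAF exosomes, 9.46, 8.31 and 7.18 CPM with hOMF exosomes and 10.9, 9.03 and 8.21 CPM in control, with all 3 groups overlapping. The 8 NDUFAF assembly factors had 0 calls in any comparison, and their log2 fold changes ran from -0.15 to 0.33 for CAF and from -0.42 to 0.31 for hOMF exosomes. At an unadjusted p under 0.05 they numbered 1 with CAF exosomes against control, 2 with hOMF exosomes against control and 0 between the sources. The shares of all tested genes in the same order were 18.2%, 23.2% and 0.016% called, and 32.8%, 36.7% and 7.59% at an unadjusted p under 0.05. Of these factors NDUFAF4 was called with hOMF exosomes in 3 of 20 alternatives, namely GC content and length offsets with and without the replicate block and leaving out control replicate 1, and NDUFAF7 with CAF exosomes in 1, leaving out CAF replicate 2. Genes classed by symbol under complexes II and IV had 0 calls in all 20 alternatives. NDUFA4, classed by symbol under complex I, was called in 14 with CAF and 8 with hOMF exosomes.

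Complex II, which is also the succinate dehydrogenase of the tricarboxylic acid cycle, had 0 of 4 genes called in any comparison by edgeR. At an unadjusted p under 0.05 there were 0, 0 and 1 for CAF against control, hOMF against control and CAF against hOMF exosomes. The shares of all tested genes in the same order were 18.2%, 23.2% and 0.016% called, and 32.8%, 36.7% and 7.59% at an unadjusted p under 0.05. SDHA and SDHB differed from control by -0.02 and 0.01 on the log2 scale with CAF exosomes and by -0.05 and 0.09 with hOMF exosomes. SDHD, the small membrane anchor, had 44.1, 46.4 and 45.1 CPM with CAF exosomes, 51.4, 49.6 and 50.4 CPM with hOMF exosomes and 48.0, 48.7 and 50.1 CPM in control. Its CAF libraries were below all others, with an adjusted p of 0.62 between the sources.

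Complex III, the ubiquinol to cytochrome c reductase, had 1 gene higher and 0 lower with CAF exosomes, and 1 higher and 1 lower with hOMF exosomes, among 9 tested. That is 11.1% with CAF and 22.2% with hOMF exosomes, beside 18.2% and 23.2% of all tested genes. UQCRC2 (core protein 2) had 154, 149 and 156 CPM with CAF exosomes, 139, 149 and 159 CPM with hOMF exosomes and 128, 129 and 120 CPM in control. All exosome libraries were above all control libraries. The rise was 1.22-fold with CAF exosomes (95% interval 1.10 to 1.35, adjusted p = 0.0125) and 1.18-fold with hOMF exosomes (1.07 to 1.31, adjusted p = 0.0205). The CAF call was lost in 1 of 20 settings, without control replicate 3, at an adjusted p of 0.0519. The hOMF call was lost in 3, without hOMF replicate 2, hOMF replicate 3 or control replicate 3.

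UQCRC1 (core protein 1) had 102, 111 and 110 CPM with CAF exosomes, 98.2, 99.6 and 99.7 CPM with hOMF exosomes and 113, 111 and 123 CPM in control. Its promoter window is 1 of the 17 among 77 that hold the NRF1 letters. The hOMF libraries were below all control libraries, and the CAF libraries overlapped control. It fell with hOMF exosomes (log2 -0.22, SE 0.07, adjusted p = 0.030), and its value with CAF exosomes was -0.10 (SE 0.07, adjusted p = 0.331). The hOMF call was lost in 7 of 20 settings, without hOMF replicate 1, 2 or 3, without control replicate 3, without TMM factors and in both limma fits of FPKM. The difference between the sources was 0.12 (adjusted p = 0.729). No exons of other genes overlap UQCRC2, which lies at chr16:21952660-21983660 on the plus strand, or UQCRC1, which lies at chr3:48599002-48610976 on the minus strand. Of the other 7 tested genes of complex III, 0 were called, and UQCRH was 0.00 and 0.02 from control on the log2 scale with CAF and hOMF exosomes.

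CYCS, the soluble cytochrome c that carries electrons to complex IV and on release from mitochondria triggers apoptosis, had 170, 180 and 179 CPM with CAF exosomes, 171, 168 and 179 CPM with hOMF exosomes and 207, 202 and 199 CPM in control. All 6 exosome libraries were below all 3 control libraries. The log2 fold change was -0.20 (SE 0.06, adjusted p = 0.0379) for CAF exosomes and -0.23 (SE 0.06, adjusted p = 0.0155) for hOMF exosomes. The CAF call held in only 7 of 20 alternative settings (adjusted p from 0.0179 to 0.11), and was lost without CAF replicate 1, 2 or 3, hOMF replicate 2 or control replicate 1, 2 or 3 and in 6 other settings. The hOMF call held in 17, and was lost without hOMF replicate 2 and in both limma fits of FPKM. The gene lies at chr7:25120091-25125361 on the minus strand with no overlapping exons.

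**Figure D3:**
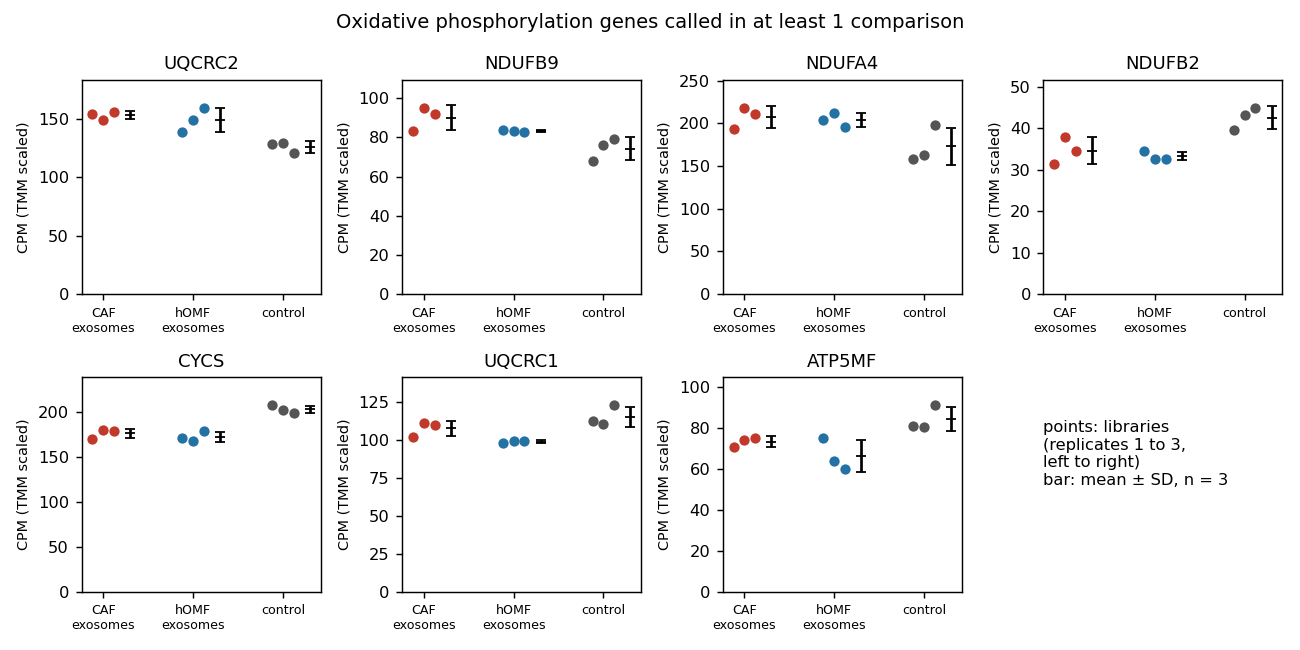
TMM-scaled CPM of the 7 genes called in at least 1 comparison with control. Points are libraries and bars are mean ± SD (n = 3). For NDUFB2, CYCS and ATP5MF every exosome library is below every control library, and for UQCRC2 and NDUFB9 every one is above. The genes were picked by calls from these same libraries, so this separation is no further support.

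Complex IV, cytochrome c oxidase, had 0 of 12 genes called in any comparison by edgeR, and 0 at an unadjusted p under 0.05. Of all tested genes, 18.2% were called with CAF exosomes, 23.2% with hOMF exosomes and 0.016% between the sources. At an unadjusted p under 0.05 these shares were 32.8%, 36.7% and 7.59%. The 12 genes leave out NDUFA4, a subunit called with CAF exosomes but placed under complex I by its symbol. The median log2 fold change of the 12 genes was 0.04 with CAF exosomes and 0.10 with hOMF exosomes, with 8 and 9 of 12 positive. Without TMM factors the medians were 0.07 and 0.15, with 10 and 12 of 12 positive. In that setting the medians over all tested genes also moved up, to 0.02 and 0.06. Summed over its genes, complex IV had 9722 ± 262 TPM with CAF exosomes, 10101 ± 204 TPM with hOMF exosomes and 9046 ± 150 TPM in control (SD, n = 3 each). On this scale without TMM factors the control libraries, at 8895 to 9194 TPM, were below all exosome libraries, which ran from 9425 to 10336 TPM. COX8A and COX6A1 make up much of that sum.

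Among single complex IV genes, COX7A2 (the common form of subunit VIIa) had 115, 121 and 128 CPM with CAF exosomes, 126, 112 and 122 CPM with hOMF exosomes and 109, 110 and 112 CPM in control. Its CAF libraries were all above control, its hOMF libraries were not, and adjusted p was 0.20 and 0.24. COX4I1, which holds a regulatory site of the enzyme, was 0.05 and -0.01 from control with CAF and hOMF exosomes, and COX7A2L, known for its part in supercomplex assembly, was -0.04 and 0.06. COX6B2 had 1.34, 1.36 and 1.34 CPM with CAF exosomes, 1.65, 1.05 and 1.07 CPM with hOMF exosomes and 1.36, 0.903 and 0.319 CPM in control. Its fold changes, the highest of all members at 0.67 and 0.56 on the log2 scale, had adjusted p of 0.267 and 0.338 and rested on 4 counts in control replicate 3.

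Complex V, the ATP synthase, had 18 tested genes, with 0 called with CAF exosomes and 1 with hOMF exosomes. That is 0% and 5.56%, beside 18.2% and 23.2% of all tested genes. ATP5MF, a small subunit of the membrane part, had 70.5, 74.2 and 75.3 CPM with CAF exosomes, 74.9, 63.7 and 59.8 CPM with hOMF exosomes and 81.0, 80.7 and 91.0 CPM in control. All exosome libraries were below all control libraries. It fell with hOMF exosomes (log2 -0.35, SE 0.09, adjusted p = 0.00861), a call made in all 20 alternative settings with adjusted p of 0.00238 to 0.0478, and was at -0.20 (SE 0.09, adjusted p = 0.116) with CAF exosomes. The difference between the sources was 0.15 (adjusted p = 0.734). ATP5MF lies at chr7:99448475-99466331 on the minus strand and shares exons with the read-through gene ATP5MF-PTCD1, whose counts were 0 in most libraries.

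The median log2 fold change of complex V was -0.06 with either exosome type. Without TMM factors it was -0.04 with CAF and -0.01 with hOMF exosomes, beside 0.02 and 0.06 over all tested genes. ATP5F1B, the catalytic beta subunit, is named here as a standard of the complex after its values were seen, and was -0.06 and -0.10 from control with adjusted p of 0.65 and 0.41. The 3 genes for the ring subunit c, which code for the same mature protein, were between -0.11 and 0.08 with CAF exosomes and between -0.17 and 0.03 with hOMF exosomes. ATP5IF1, the inhibitor of ATP hydrolysis by the synthase, had 96.5, 136 and 116 CPM with CAF exosomes, 133, 119 and 104 CPM with hOMF exosomes and 94.4, 101 and 105 CPM in control. It overlapped control in both groups, and adjusted p was 0.191 with CAF and 0.115 with hOMF exosomes. Without CAF replicate 1 its CAF value was 0.33 (adjusted p = 0.0448), and without hOMF replicate 3 its hOMF value was 0.34 (adjusted p = 0.0469), while adjusted p over all alternatives reached 0.602 for CAF exosomes.

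The members shared shifts between libraries of 1 group. In CAF exosome replicate 1, 80 of 91 genes were below their own mean over the 9 libraries, with a median deviation of -0.12 on the log2 CPM scale, and 45 had their lowest value there. In CAF exosome replicate 2, 76 of 91 were above, with a median deviation of 0.08, and 23 had their highest value there. The third CAF library was at 0.03, the hOMF libraries at 0.05, -0.02 and -0.01 and the control libraries at -0.04, -0.01 and 0.05. Such counts of genes were not made over all tested genes, so they do not set the members apart from other genes.

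The same libraries stood at the ends for genes of short transcripts in general. The 2985 genes under 1000 nucleotides had mean deviations of -0.04 in CAF replicate 1 and 0.04 in CAF replicate 2, where the members' means were -0.13 and 0.09. The median transcript length of the members was 734.5 nucleotides, against 1842 for all genes. With offsets for GC content and transcript length, the members' means in those libraries were -0.11 and 0.07. The part of transcript length in the spread between libraries was not tested beyond these values. The median coefficient of variation of a member was 8.32% among CAF exosome libraries, 5.37% among hOMF exosome libraries and 5.97% among control libraries.

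Without CAF replicate 1 the CAF comparison called 6 of 92 tested members, all higher (6.52%, beside 12.6% of all tested genes). The members' median became 0.06, beside -0.001 for all genes. Without CAF replicate 2 the CAF comparison called 3 of 92 (3.26%, beside 15.4%) and the median became -0.05. The count for CAF exosomes was 1 without CAF replicate 3 or control replicate 2, where 10.7% and 11% of all tested genes were called. It was 2 without control replicate 1 or 3 (16% and 11.5% of all tested genes) and 3 without hOMF replicate 2 (14.9%). For hOMF exosomes it was 2 without hOMF replicate 2 (13.5% of all tested genes).

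**Figure D4:**
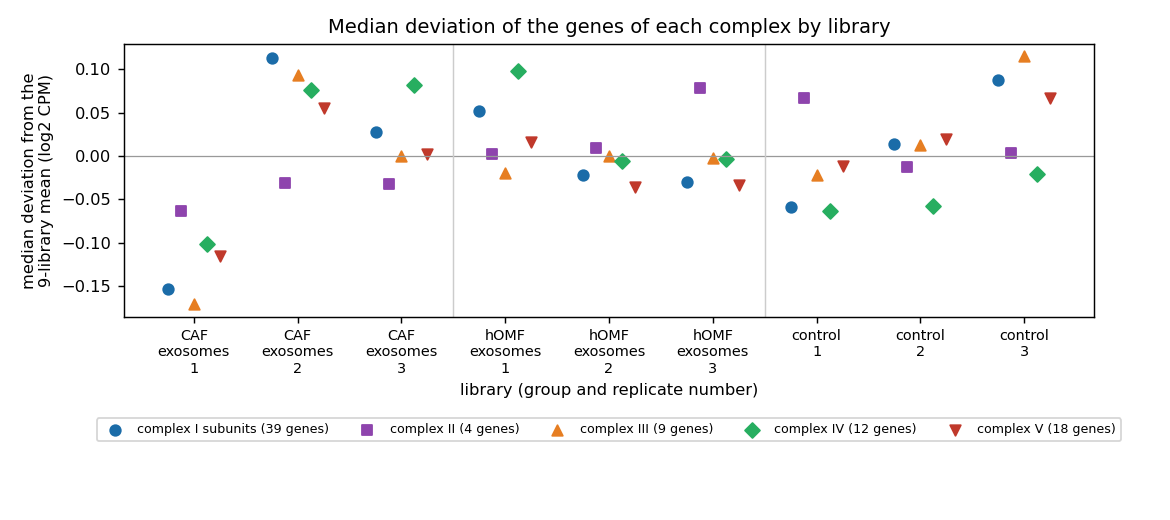
Median deviation of the tested genes of each complex from their means over the 9 libraries, in log2 CPM, for each library. CAF exosome replicate 1 lies lowest, with every complex between -0.17 and -0.06, and complexes I, III, IV and V are above 0 in CAF exosome replicate 2.

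Genes around the respiratory chain were described from lists. Among 38 tested assembly factors of complexes II to V, 0 were higher and 1 lower with CAF exosomes, and 3 were higher and 2 lower with hOMF exosomes. That is 2.63% of the list with CAF and 13.2% with hOMF exosomes, beside 18.2% and 23.2% of all tested genes. The lower gene with CAF exosomes was COX20, a chaperone of complex IV (-0.27, adjusted p = 0.0374), a call lost in 10 of 20 alternatives, among them DESeq2, both fits of log2 FPKM and leaving out any 1 CAF library. SDHAF4, a complex II assembly factor, had 9.97, 10.4 and 9.85 TPM with CAF exosomes, 12.1, 10.9 and 12.1 TPM with hOMF exosomes and 7.62, 4.92 and 7.96 TPM in control. It was above control in all exosome libraries, at 0.50 (adjusted p = 0.0648) with CAF exosomes and 0.69 (adjusted p = 0.0109) with hOMF exosomes. The hOMF call of SDHAF4 was lost without control replicate 2. COX15 and COA5 rose with hOMF exosomes by 0.28 and 0.38 on the log2 scale, and COA7 fell by 0.42, calls made in 16, 15 and 16 of 20 alternatives. TMEM70, an assembly factor of complex V named here after its values were seen, fell by 0.32 with hOMF exosomes (adjusted p = 0.0414), a call lost in 11 of 20 alternatives, DESeq2 among them. Of 12 other complex I assembly genes including NDUFAB1, only NUBPL was called, higher with hOMF exosomes at 0.32 (adjusted p = 0.0447), a call lost in 11 of 20 alternatives, among them DESeq2, the replicate block and leaving out any 1 hOMF or control library. The 19 genes of pyruvate dehydrogenase and the tricarboxylic acid cycle had 0 calls by edgeR in both comparisons with control, and 1 gene at an unadjusted p under 0.05 in each. Of all tested genes, 18.2% and 23.2% were called, and 32.8% and 36.7% had an unadjusted p under 0.05.

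Of 8 carriers of adenine nucleotides, phosphate and the outer membrane, 0 were higher and 1 lower with CAF exosomes and 0 were called with hOMF exosomes, with median log2 fold changes of -0.14 and -0.08. That is 12.5% of the list with CAF and 0% with hOMF exosomes, beside 18.2% and 23.2% of all tested genes. The lower gene was VDAC3, a channel of the outer membrane, at -0.27 (adjusted p = 0.0264), a call lost in 6 of 20 alternatives, among them DESeq2 and leaving out any 1 control library. It had 38.4, 38.0 and 41.0 TPM with CAF exosomes, 44.1, 45.7 and 46.4 TPM with hOMF exosomes and 45.4, 43.3 and 46.5 TPM in control, the CAF libraries being below all others.

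Of 18 tested regulators of mitochondrial gene expression, 0 were higher and 2 lower with CAF exosomes, and 1 was higher and 4 lower with hOMF exosomes, with medians of -0.11 and -0.02. That is 11.1% of the list with CAF and 27.8% with hOMF exosomes, beside 18.2% and 23.2% of all tested genes. The higher gene was TFB1M, a methyltransferase of mitochondrial ribosomal RNA named here after its values were seen, at 0.28 (adjusted p = 0.0402), called in 12 of 20 alternatives. MYC, a transcription factor known to raise mitochondrial biogenesis among many targets, had 94.1, 111 and 102 TPM with CAF exosomes, 84.7, 87.4 and 88.3 TPM with hOMF exosomes and 118, 136 and 150 TPM in control. It was below control in all exosome libraries, at -0.46 (SE 0.09, adjusted p = 0.00312) and -0.72 (SE 0.09, adjusted p = 7.28e-05) in counts, and was called in all 20 alternatives in both comparisons.

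TFAM, which packages and transcribes mitochondrial DNA, had 24.6, 18.1 and 18.8 TPM with CAF exosomes, 22.2, 18.1 and 32.0 TPM with hOMF exosomes and 27.2, 28.7 and 34.1 TPM in control. The CAF libraries were below control and 1 hOMF library was within its range. The log2 fold change was -0.43 (SE 0.09, adjusted p = 0.00506), called in all 20 alternatives, for CAF exosomes, and -0.29 (SE 0.09, adjusted p = 0.0309), called in 13, for hOMF exosomes. With hOMF exosomes PPRC1, a PGC-1-related coactivator, fell by 0.42 (adjusted p = 0.00331) and TWNK, the mitochondrial DNA helicase, fell by 0.47 (adjusted p = 0.0225), a call made in 14 of 20 alternatives. NRF1 was 0.13 and -0.01 from control with CAF and hOMF exosomes and GABPA -0.21 and -0.03, none of them called. Between the exosome sources edgeR called 0 genes of these lists, with 2 of the assembly factors of complexes II to V, 2 of the complex I assembly genes, 1 of the tricarboxylic acid cycle genes, 1 of the carriers and 3 of the regulators at an unadjusted p under 0.05.

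Epithelial identity of the cells was checked with squamous markers, all 10 of which were tested, with summed levels of 6227 to 6309 TPM with CAF exosomes, 5336 to 6015 TPM with hOMF exosomes and 4165 to 5373 TPM in control. With CAF exosomes 4 of the 10 were called higher (KRT5, KRT14, KRT17 and KRT6A) and 0 lower. All 10 log2 fold changes were above 0, with a median of 0.11 over the list. With hOMF exosomes KRT5 and KRT14 were called higher and 0 lower, with 6 fold changes above 0, 4 below and a median of 0.02. The calls were 40% of the list with CAF and 20% with hOMF exosomes, beside 18.2% and 23.2% of all tested genes. Of all tested genes, 9.51% and 11.8% were called higher. The call of KRT14 with hOMF exosomes was lost in 6 of 20 alternatives, and those of KRT17 and KRT6A with CAF exosomes in 5 and 2. Of 12 fibroblast markers 5 were tested, with summed levels of 145 to 148 TPM with CAF exosomes, 137 to 140 TPM with hOMF exosomes and 117 to 142 TPM in control. Log2 fold changes were above 0 for 5 of 5 with CAF exosomes (median 0.22) and for 4 of 5 with hOMF exosomes (median 0.26). In each comparison 1 of the 5 was called, which is 20%, beside 18.2% and 23.2% of all tested genes. FBLN1 made up most of these sums, LUM rose in both comparisons to under 3 TPM in every library, and COL3A1, DCN, POSTN, FAP and THY1 were at or near 0 in every library. Of 6 leukocyte markers 2 were tested and 0 were called. Summed levels were 40.9 to 49.0 TPM with CAF exosomes, 42.3 to 44.4 TPM with hOMF exosomes and 37.6 to 46.2 TPM in control. The log2 fold changes of the 2 tested were 0.09 and 0.33 with CAF exosomes and -0.005 and 0.37 with hOMF exosomes. PTPRC and LYZ were highest in control replicate 3 at 2.44 and 3.37 TPM. The part of these markers in the changes of oxidative phosphorylation genes was not tested.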

How the data were processed

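RNA-seq of Cal-27 cells in 3 groups of 3 libraries was used from the authors' deposited table. Per the labels' protocols, poly(A) RNA was read as paired ends with the second strand marked by dUTP. The submitters' processing notes list Bowtie2 2.2.5 and RSEM 1.2.8. They name a mouse build although the gene identifiers are human, which leaves the authors' build unsettled. Positions in the text come from GRCh38 annotation matched by gene identifier. Per the file headers the authors deposited expected counts, FPKM and TPM for each library. The expected counts (90.5% to 92.0% whole to within 0.001) were rounded. The FPKM and TPM deposited by the authors are scaled per length and depth. TPM was used for levels only.

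Genes were kept by filterByExpr (minimum count 10, minimum total 15), leaving 12470. Libraries were scaled by TMM, and 1 edgeR quasi-likelihood fit held all 9 libraries with group as its term and 6 residual degrees of freedom. Tests were two-sided with Benjamini-Hochberg adjustment over all tested genes and a threshold of 0.05. Intervals cover 95%. CPM values are TMM scaled. With 11185672 to 12779101 counts per library, the interval of a member reached a median of 0.18 to either side on the log2 scale. The script was tested on simulated counts.

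Alternatives were DESeq2, limma-voom, limma on log2(FPKM + 1) and log2(FPKM + 0.1), RLE factors, no TMM factors, no filter on low counts, the 2 compared groups alone, a replicate block, offsets for GC content and transcript length, both together, and leaving out each library, 20 in all. The sources used here do not state the strand setting or the annotation behind the counts. Of the 94 members, 76 had whole counts in every library, 36 overlap exons on the opposite strand and 21 on the same strand. Within groups, no libraries agreed within sampling noise (chi-square per degree of freedom 3.08 to 11.1).

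The members and lists were chosen with earlier results of these data known. Named members were those called, the 2 most abundant of each complex, listed isoforms and those not tested, and called genes of each list, up to 4 with the smallest p. Promoter windows are from RefSeq (GRCh38.p14). The tools were edgeR 4.0.16, DESeq2 1.42.0 and limma 3.58.1 under R 4.3.3, with pandas 2.3.3 and matplotlib 3.10.9 under python 3.11.15.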

Additional observations from a re-analysis of the deposited data

How the results depend on the processing

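No direction of a named gene that was called reversed in the 20 alternatives. The count of members called with CAF exosomes against control was 5, 3 in the fit of the 2 groups alone and 7 in both limma fits of log2 FPKM, which share 4 of the 5 (all but CYCS) and add NDUFS4, NDUFB1 and NDUFB3; over the other processing alternatives it was 4 to 6, and leaving out 1 library gave 1 to 6. With hOMF exosomes against control it was 5, and 8 with GC content and length offsets, both with and without the replicate block; leaving out 1 library gave 2 to 7. CAF against hOMF exosomes gave 0 in every alternative. The median log2 fold change of members with hOMF exosomes was 0.046 and 0.047 in the limma fits of log2(FPKM + 1) and log2(FPKM + 0.1) and 0.049 without TMM factors, and 0.047, 0.056 and 0.056 over all genes in those settings. Leaving out 1 library gave medians of -0.047 to 0.058 (CAF against control), -0.031 to 0.041 (hOMF against control) and -0.040 to 0.065 (CAF against hOMF exosomes).

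Same-numbered libraries of different groups correlated between -0.154 and 0.14 in their deviations, so the numbers were not taken to pair samples. With the replicate block the members called were 4, 5 and 0 in the same order of comparisons.

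Over all genes, 52.4% of calls were higher with CAF exosomes against control, but 63.1% without TMM factors and 64.0% in limma on log2(FPKM + 1). For hOMF exosomes against control these shares were 50.9%, 67.0% and 68.7%. The count of all genes called with CAF exosomes fell to 1343 without CAF replicate 3, 1389 without control replicate 2 and 1442 without control replicate 3, and that with hOMF exosomes to 1695 without hOMF replicate 2. CAF against hOMF exosomes called 2 genes by edgeR, 36 by DESeq2 and 14 with GC content and length offsets. The cause of these differences was not tested. Genes under about 20 counts, such as COX6B2, are limited by depth.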

Other observations

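The read-through gene ATP5MF-PTCD1 had 0, 0 and 32 counts in CAF exosome libraries, 0, 0 and 0 in hOMF exosome libraries and 0, 0 and 25 in control libraries. It was not tested.

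Counts of 7 of the 94 members were whole numbers in no more than 2 of the 9 libraries, so that part of their reads was shared out between similar transcripts. These were NDUFA9, NDUFC2, NDUFC2-KCTD14, NDUFV3, UQCRH, UQCRHL and ATP5PB. Their values stand as estimates.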
